A study of Oryza sativa with 24 samples.

Results

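The step from 0.5 h to 2 h of osmotic stress was followed in rice (Oryza sativa) seedlings by setting the small RNA libraries of 2 h of PEG treatment against those of 0.5 h, chosen by their sample titles. These were 8 of the 24 arrays of the series and 4 of its 12 libraries. Seedlings of the one group had stood for 2 h in 15% PEG6000 and those of the other for 0.5 h in the same solution, so both carry the treatment. Seedlings had been raised in Yoshida's solution with days of 13 h light at 26 °C and nights of 11 h at 22 °C. There were 2 libraries of small RNA for each time, each measured by 2 one-colour array hybridizations. The labels name no cultivar, seedling age or plant part, and do not say whether the libraries of a time came from separate plants. Seedlings kept without PEG for the same hours were not analysed here, so time under PEG and time of day cannot be told apart.

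PEG is a polymer that roots do not readily take up. It lowers the water potential of the solution, so that a plant in it meets the loss of water uptake that drought brings. Plant microRNAs are short RNAs, cut from hairpin precursors, that guide Argonaute proteins to messenger RNAs with closely matching sites, where the message is cleaved or its translation is held back. Many of their known targets are transcription factors and parts of hormone signalling, and several microRNA families of plants are known to change in level under drought or salt.

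Each array held 896 spots in 224 sets of 4 spots, under 223 probe codes. The files do not pair codes with microRNA names or sequences, so no microRNA is named and no sequence is shown. In each comparison at most 2 sets that rose and 2 that fell were chosen for description by size of change. R108 and the sets under Other observations are given for other reasons, after their values were seen. Levels are log2 of the spot intensity plus 50 after quantile normalization, averaged over the spots of a set, and a library's level is the mean of its 2 arrays. The library is the replicate (n = 2 a time).

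The arrays of the 2 times had overlapping ranges of median spot intensity, at 200.04 to 450.05 for 2 h and 180 to 398 for 0.5 h. The median of a 2 h array was 0.948 to 1.51 times that of the 0.5 h array with the same library and hybridization number. The 5th percentile lay between 29.6 and 140.02 at 2 h and between 24.3 and 148 at 0.5 h. The bright end differed. Spots above 60000, near the scanner's ceiling of 65535, numbered 5 to 9 an array at 2 h, against 14 to 25 at 0.5 h, and these ranges do not overlap. The summed intensity of a 2 h array was 0.774 to 0.988 times that of the 0.5 h array with the same library and hybridization number. Of the 10 sets with such a spot on any of the 8 arrays, 8 had a lower mean raw intensity at 2 h than at 0.5 h and 2 a higher one, at 0.494 to 1.58 times the 0.5 h value. Quantile normalization gives all arrays the same distribution and so removes a shared shift of the bright end. For sets near the ceiling the change is compressed.

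Between 0.5 h and 2 h, 25 of the 224 sets changed, which is 11.2% of those tested. Of these, 14 sets (6.25%) rose and 11 sets (4.91%) fell. This balance depended on how arrays were scaled: 14 rose and 41 fell with median scaling, and 11 rose and 18 fell without normalization. The rises ran from 0.44 to 1.43 on the log2 scale with a median of 0.62. The falls ran from -1.17 to -0.43 with a median of -0.77. By code, the 210 sets with an R code held all 14 rises and 9 of the falls. The 14 sets with an N code held 0 rises and 2 falls. Most of the array moved little. The median size of change over all sets was 0.17, 37 sets differed by more than 0.5, and 3 by more than 1 (R218, R277 and R241, described below). The test was limma with the library number as a block, fitted to the 10 libraries of the 5 times under PEG, with Benjamini-Hochberg adjustment over all 224 sets, and 68 sets had an unadjusted p under 0.05. These counts rest on pairing the libraries by number: without the replicate block 1 set passed (0.446%) and 28 had an unadjusted p under 0.05. That set was R108, which is named because of this result, after its values were seen; its change of -0.89 had a standard error of 0.10 in both fits (limma adjusted p = 0.00126 with the block and 0.01000 without). R108 averaged 8.85 ± 0.04 at 2 h and 9.75 ± 0.08 at 0.5 h (SD, n = 2 each), with changes of -0.98 in library pair 1 and -0.81 in pair 2, and its libraries of each time differed little from one another. Without library 1 of 0.5 h the count was 4, and without library 2 of 0.5 h it was 10.

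The change was measured separately in 2 pairs of libraries that share no library, 2 h minus 0.5 h in libraries 1 and in libraries 2. Over the 224 sets the changes of the pairs correlated with r = 0.649 (Spearman's rho 0.636), given as a description across sets that share their normalization. Of the sets, 159 (70.98%) moved the same way in both pairs and 65 moved in opposite ways. The SD of the changes was 0.38 in pair 1 and 0.39 in pair 2, and that of the difference between the pairs was 0.33. In 94 of the 224 sets (42%) the libraries of 2 h did not overlap with those of 0.5 h, with 38 of these sets higher and 56 lower at 2 h. Among the 25 sets that changed, 21 did not overlap.

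**Figure D1:**
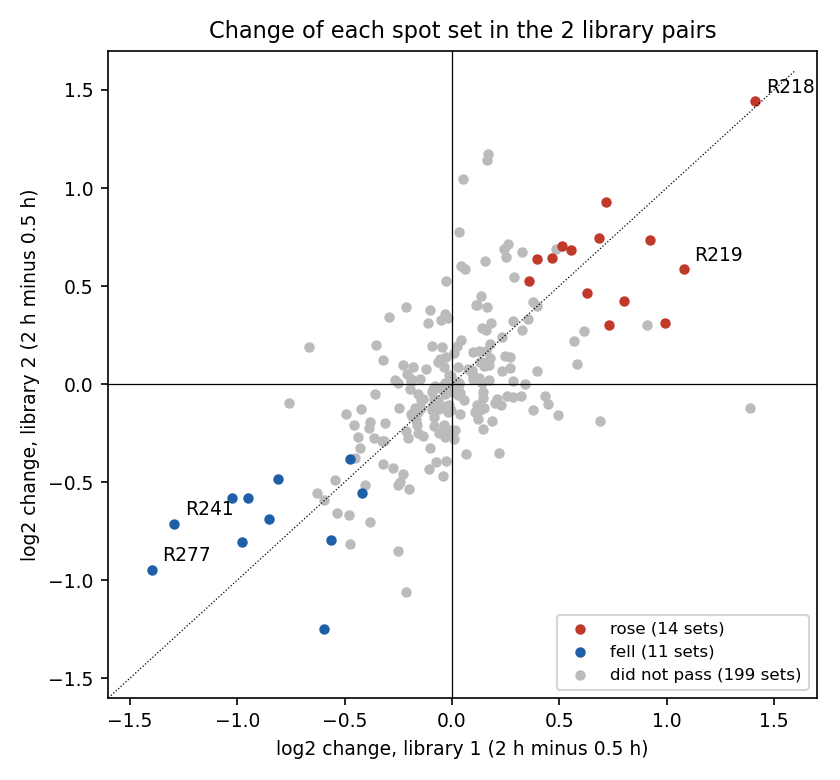
Log2 change from 0.5 h to 2 h in library pair 2 (vertical) against pair 1 (horizontal) for each of the 224 spot sets, with a dotted line where both are equal. Red points rose (14 sets), blue points fell (11) and grey points did not pass the test (199); R218 lies on the line at the top right with changes of 1.41 and 1.44, and R277 and R241 lie furthest to the left.

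The largest rise was that of set R218, printed in row 9, columns 13 to 16, of the array's first sub-grid. Its level was 11.17 and 11.20 on the arrays of library 1 and 12.49 and 12.78 on those of library 2 at 2 h, against 9.65 and 9.89 for library 1 and 11.26 and 11.12 for library 2 at 0.5 h. Every array of 2 h was above its own 0.5 h partner, but library 1 at 2 h lay level with library 2 at 0.5 h, so the groups overlapped. Raw spot means were 1899, 1543, 6854 and 6389 at 2 h, against 897, 671, 2258 and 2107 at 0.5 h, in the same order of arrays. The library means averaged 11.91 ± 1.03 at 2 h and 10.48 ± 1.004 at 0.5 h (SD, n = 2 each). The rise was 1.43 ± 0.10 (SE), a fold of 2.69 (limma adjusted p = 5.35e-05), with 1.41 in pair 1 and 1.44 in pair 2. Library 2 exceeded library 1 by 1.42 to 1.58 at each of the 5 times, a difference as large as the rise itself, and without the block the adjusted p was 0.558.

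R219, whose code follows R218, lies at the same place of the second sub-grid and was dimmer. Its level was 9.91 and 9.39 in library 1 and 10.76 and 10.10 in library 2 at 2 h, against 8.62 and 8.51 in library 1 and 10.06 and 9.63 in library 2 at 0.5 h. Here too each array of 2 h exceeded its 0.5 h partner, as the rule for choosing sets required, while the groups overlapped. The means were 10.04 ± 0.55 at 2 h and 9.21 ± 0.90 at 0.5 h (SD, n = 2 each) at a fold of 1.78, which on the log2 scale is 0.83 ± 0.17 (SE; limma adjusted p = 0.0152). Pair 1 rose by 1.08 and pair 2 by 0.59. The call was lost when library 1 of either time was left out, with an adjusted p of 0.0524 for that of 2 h and 0.116 for that of 0.5 h. The highest adjusted p over its alternatives was 0.607, without the block.

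R277 fell furthest. Its level was 8.87 and 8.85 in library 1 and 9.39 and 9.37 in library 2 at 2 h, against 10.22 and 10.30 in library 1 and 10.47 and 10.19 in library 2 at 0.5 h. All 4 arrays of 2 h lay below all 4 of 0.5 h. Raw spot means were 525, 296, 867 and 519 at 2 h, against 1253, 997, 1234 and 892 at 0.5 h. The library means averaged 9.12 ± 0.37 at 2 h and 10.29 ± 0.05 at 0.5 h (SD, n = 2 each), a change of -1.17 ± 0.15 (SE), which is 2.25 fold lower (limma adjusted p = 0.00217). The change was -1.40 in pair 1 and -0.95 in pair 2, and the adjusted p was 0.125 without the block.

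R241, a brighter set, also separated the times on every array. Its level was 10.83 and 10.85 in library 1 and 11.45 and 11.32 in library 2 at 2 h, against 12.21 and 12.05 in library 1 and 12.21 and 11.98 in library 2 at 0.5 h. The means were 11.11 ± 0.39 at 2 h and 12.11 ± 0.02 at 0.5 h (SD, n = 2 each), a change of -1.002 ± 0.18 (SE), 2.003 fold lower (limma adjusted p = 0.0140). Pair 1 changed by -1.29 and pair 2 by -0.71. The libraries of 0.5 h were nearly equal in both R277 and R241, and in both library 1 was the lower of the 2 h libraries. The call on R241 was lost without library 1 of 0.5 h (adjusted p = 0.106) and without the block (0.125, the highest over its alternatives).

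**Figure D2:**
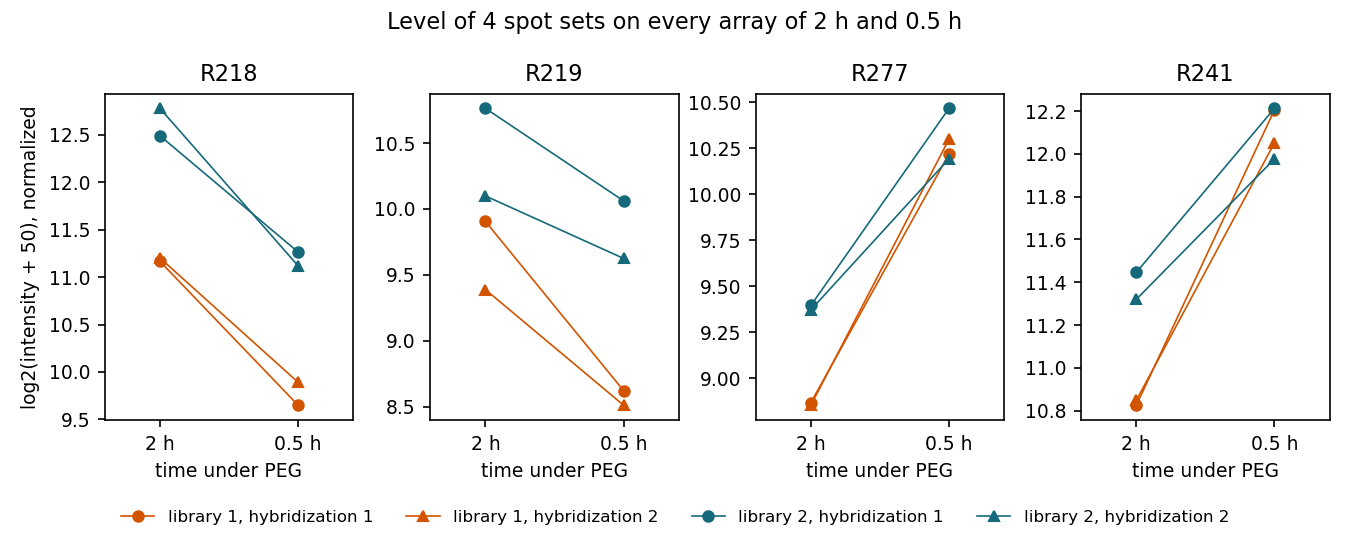
Normalized log2 level of R218, R219, R277 and R241 on each of the 8 arrays, 2 h on the left and 0.5 h on the right of each panel, with a line joining arrays of the same library and hybridization number; the vertical scale differs between panels. R218 and R219 are higher at 2 h on every line while library 2 stays above library 1. All 4 arrays of 2 h lie below all 4 of 0.5 h in R277 and R241. The rule for choosing sets required 1 direction on all 4 lines of a set.

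Sets that changed were found at middle and high levels. Among the dimmest 74 sets (levels 6.74 to 7.53) 0 passed by limma and 6 had an unadjusted p under 0.05. Of the next 75 sets 9 passed, and of the brightest 75 (levels 9.62 to 15.94) 16 did. The median size of change was 0.10 in the dimmest, 0.19 in the next and 0.30 in the brightest of these classes. The added offset of 50 compresses changes of dim sets, and signal over background cannot be judged because the scanner recorded a local background above 0 for 40 of the 7168 spots, at most 1.62.

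**Figure D3:**
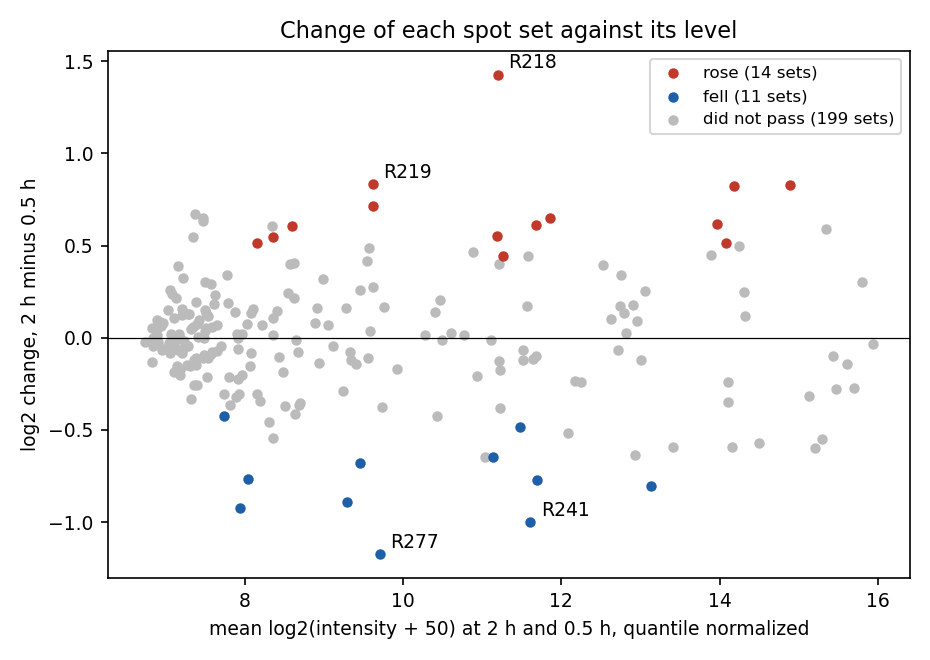
Log2 change from 0.5 h to 2 h (vertical) of each of the 224 spot sets against its mean log2 level over both times (horizontal). Red points rose (14 sets), blue points fell (11) and grey points did not pass (199); none of the dimmest 74 sets, at levels up to 7.53, passed, and neither did any of the brightest 10.

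The 2 h level was also set against the mean of its neighbouring times, 0.5 h and 6 h, in the same fit. The contrast is proportional to the difference between the step from 0.5 to 2 h and the step from 2 to 6 h, and so tests that difference. A set can pass it without differing from each neighbour. It shares the 2 h and 0.5 h libraries with the first comparison and gives no independent support to it. In 42 of 224 sets (18.8%) the 2 h level differed from the mean of its neighbours, with 23 sets (10.3%) above it and 19 sets (8.48%) below, against 21 above and 52 below with median scaling. By limma 73 sets had an unadjusted p under 0.05. Without the replicate block 1 set passed (0.446%), again R108 (log2 difference -0.93, adjusted p = 0.00297), and 36 had an unadjusted p under 0.05. The count fell under every single-library omission. It was 27 and 26 when library 1 and then library 2 of the 2 h seedlings was dropped, 25 and 24 for those of 0.5 h, and 20 and 26 for those of 6 h.

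R218 averaged 11.91 ± 1.03 at 2 h, against 10.48 ± 1.004 at 0.5 h and 10.98 ± 1.12 at 6 h (SD, n = 2 each). It stood above their mean by 1.18 ± 0.09 (SE; limma adjusted p = 7.98e-05), by 1.20 in libraries 1 and 1.15 in libraries 2. R219 averaged 10.04 ± 0.55 at 2 h, against 9.21 ± 0.90 at 0.5 h and 9.16 ± 0.34 at 6 h, a difference of 0.86 ± 0.15 (SE; limma adjusted p = 0.00630). R277 averaged 9.12 ± 0.37 at 2 h, against 10.29 ± 0.05 at 0.5 h and 10.28 ± 0.36 at 6 h, a difference of -1.16 ± 0.13 (SE; limma adjusted p = 0.000644). These 3 sets were thus named in both comparisons, and each missed the threshold here without the block (adjusted p = 0.480 for R218, 0.445 for R219 and 0.0501 for R277).

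The second set below the mean of its neighbours was R63, with 12.76 and 12.97 on the arrays of library 1 and 12.30 and 12.42 on those of library 2 at 2 h. At 0.5 h it had 13.00 and 13.15 in library 1 and 13.20 and 13.63 in library 2, and at 6 h 14.05 and 13.73 in library 1 and 14.02 and 13.99 in library 2. All 4 arrays of 2 h lay below the 8 arrays of the neighbouring times. The difference was -0.99 ± 0.21 (SE; limma adjusted p = 0.0125), made up of -0.62 in libraries 1 and -1.35 in libraries 2. For the step from 0.5 h alone R63 had a change of -0.64 that missed the threshold (adjusted p = 0.108), with -0.22 in pair 1 and -1.06 in pair 2. The call against the neighbours was lost when library 2 of the 2 h seedlings was dropped (difference -0.53, adjusted p = 0.0878) and when either 6 h library was (0.0699 for library 1 and 0.0546 for library 2). Without the block the adjusted p was 0.107, the highest over its alternatives, and with median scaling the difference was -1.57.

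Over the 5 times under PEG, the levels of R218 averaged 10.48, 11.91, 10.98, 10.74 and 10.75 at 0.5, 2, 6, 24 and 48 h. Its highest value was that of 2 h in both libraries, and the 24 h and 48 h levels differed by less than the SD of either. R219 averaged 9.21, 10.04, 9.16, 9.13 and 9.49, again highest at 2 h in both libraries. R277 averaged 10.29, 9.12, 10.28, 10.08 and 9.87, and R241 averaged 12.11, 11.11, 11.86, 11.90 and 11.42, both lowest at 2 h in each library. R63 averaged 13.25, 12.61, 13.95, 13.40 and 12.35, with its lowest level at 48 h in library 1 and at 2 h in library 2. R241 at 48 h was 11.13 in library 1 and 11.70 in library 2, between the 2 h and 24 h levels. Over all 224 sets, 2 h was the highest time in both libraries for 27 sets and the lowest in both for 32. These 59 sets compare with 28 for 0.5 h, 36 for 6 h, 12 for 24 h and 34 for 48 h. The counts are a description and were not tested.

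**Figure D4:**
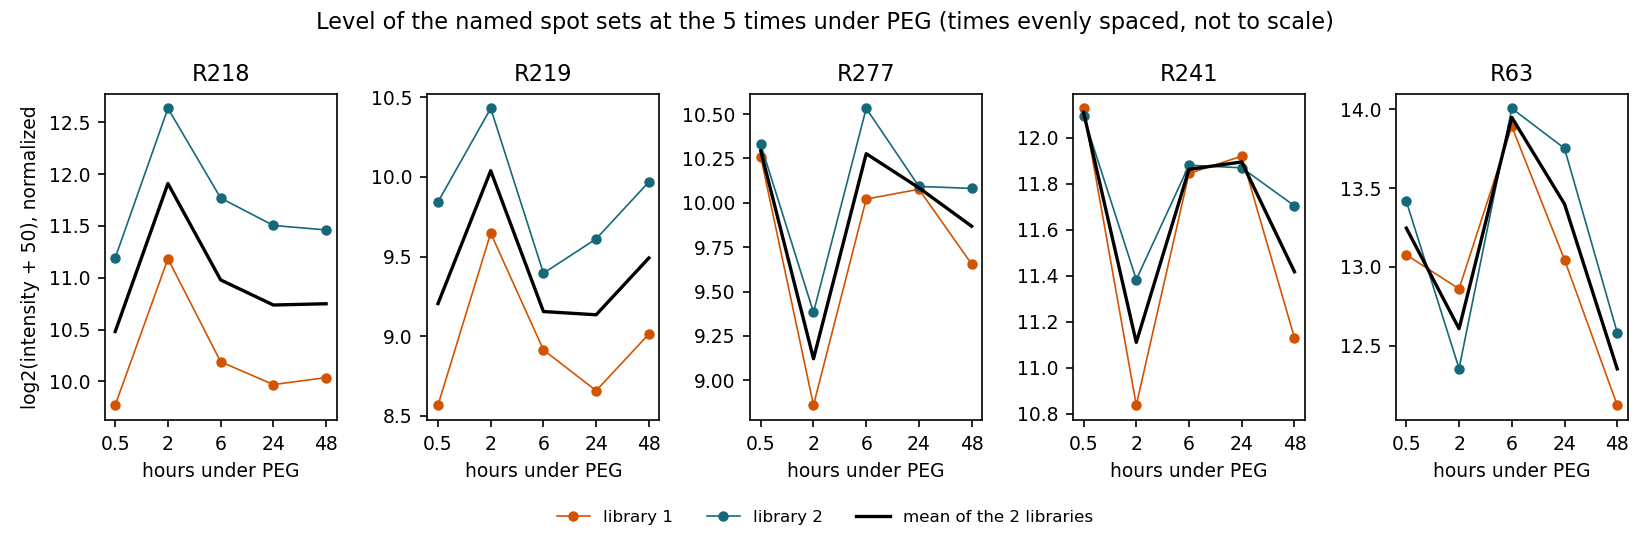
Normalized log2 level of R218, R219, R277, R241 and R63 at 0.5, 2, 6, 24 and 48 h under PEG, with library 1 in orange, library 2 in blue-green and their mean in black; times are evenly spaced and the vertical scale differs between panels. R218 and R219 are highest and R277 and R241 lowest at 2 h in both libraries, while R63 is lowest at 48 h in library 1 and at 2 h in library 2.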

How the data were processed

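Small RNA libraries labelled by PCR with a Cy5 primer were hybridized to spotted arrays, per the labels' protocols. Per the file headers, the deposited scanner values are linear spot intensities measured in a fixed circle, neither background subtracted nor crosstalk corrected; further steps by the authors are not stated in the labels or headers. The authors' deposited series table equals intensity minus background of the same spots (largest difference 9e-06).

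Intensities plus 50 were log2 transformed and quantile normalized over the 20 arrays of the 5 times under PEG (the 0 h arrays were left out), then averaged over the 4 spots of a set and the 2 hybridizations of a library. limma 3.58.1 in R 4.3.3 fitted time and library number to 10 libraries (4 residual degrees of freedom), and statmod 1.5.0 served a random block. A set changed at a Benjamini-Hochberg adjusted p under 0.05 over 224 sets, two-sided. SEs are limma's moderated ones. Exact permutation of 2 against 2 libraries without regard to pairing cannot go below p = 0.333, and keeping the pairs allows fewer arrangements still. The block takes out the steady difference between libraries 1 and 2, so p-values rest on the spread left after it, pooled over the 5 times. As libraries of a time may share plants, that spread may be technical. The fit was tested on simulated data that held the library difference constant over times and gave every set the same noise. Such data meet the assumption of the block by construction and cannot test it.

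Libraries were paired by number from the outset, and the pairing was then checked: over sets, how far library 2 exceeded library 1 correlated between times in all 10 pairs of times (r 0.663 to 0.766); what a shared number stands for is not stated in the labels. The median fitted SD was 0.13 with the block and 0.19 without it. Hybridizations of a library at 2 h and 0.5 h correlated over sets with r of 0.983 to 0.993. The 2 libraries of a time correlated with r = 0.981 at 2 h and 0.986 at 0.5 h. Libraries of the same number at 2 h and 0.5 h correlated slightly more closely, with r = 0.988 for either number.

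Apart from R108 and the sets under Other observations, named sets are the first 2 in each direction by size of change. They were ranked among sets past the threshold with 1 sign in both library pairs and all 4 hybridization pairs and no spot above 60000. Planned lists of microRNA families and control probes could not be run without names. The comparisons, tests and lists were chosen with earlier results of these data known. Alternatives covered the block, the libraries fitted, background, offset, scaling, spot average, hybridizations, dim sets, moderation, the authors' series table and the omission of single libraries.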

Additional observations from a re-analysis of the deposited data

How the results depend on the processing

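Of 25 sets called between 0.5 h and 2 h, the count was within 1.5 times under 14 of 22 alternatives. It was 1 with no replicate block (paired fit dropped), 14 with an offset of 200, 55 with median scaling, 9 with first and 13 with second hybridizations only, 45 with all hybridizations and a random block, and 4 to 29 with 1 library left out. All 25 kept their sign under each alternative that tested all 224 sets, but the sets that passed were not always the same. Of the 25, 13 were among the 29 called without normalization and 19 among the 55 with median scaling. With cyclic loess 23 were among the 36 called, and with an offset of 16 all 25 were among the 37. The split depended on the scaling: 14 rose and 41 fell with median scaling, and 11 rose and 18 fell without normalization. With the 4 libraries normalized and fitted alone, 12 rose and 16 fell. The median change of all sets was 0.13 without normalization and 0.00 with it. Of the 42 sets called against the mean of 0.5 h and 6 h, 21 were among the 56 called without normalization. With median scaling 25 of the 42 were among the 73 called, and with an offset of 16, 41 were among the 47. For 2 h against the mean of 0.5 h and 6 h, with 42 sets, the count was 1 with no replicate block, 73 with median scaling (21 above and 52 below, with 35 of the 42 keeping their sign), 13 with first hybridizations only and 20 to 27 with 1 library left out. Named sets kept their sign under every alternative run, with changes of 1.16 to 1.55 for R218, 0.59 to 1.08 for R219, -1.32 to -0.91 for R277, -1.42 to -0.79 for R241 and, against its neighbours, -1.57 to -0.53 for R63. With first hybridizations only, R219 (adjusted p = 0.123), R241 (0.0752) and R63 against its neighbours (0.0597) missed the threshold. Leaving out the sets with a spot above 60000 was chosen after seeing the data. The number of arrays and the ceiling limit precision, and the causes of these differences were not tested.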

Other observations

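Changes were also set against the order of the code numbers, a choice made after the values were seen and not tested. Across 205 pairs of sets with consecutive R codes the log2 changes from 0.5 h to 2 h correlated with r = 0.291 and the levels with r = 0.556. The changes of 220 pairs of sets next to one another in the print order of a sub-grid correlated with r = 0.0100. These pairs include those that join the end of 1 row to the start of the next. Of the 14 sets that rose, 8 had a neighbour in code that also rose, forming 5 of the 205 pairs. In 0 pairs both fell by limma and in 2 pairs 1 set rose and the other fell. The share of all sets with a neighbour in code that rose was not counted, so 8 of 14 has no background value here. The longest run held 4 consecutive codes, with log2 changes of 0.62, 0.82, 0.65 and 0.83 (limma adjusted p from 0.00217 to 0.0436). In the same order, their mean raw intensities were 19526, 23307, 3430 and 35833 at 2 h, against 11971, 13187, 2962 and 22685 at 0.5 h. The third thus rose less before normalization, where its fold was 1.57 after it. The next code had a change of 0.50 (adjusted p = 0.0571) and the one after it rose by 0.52 (adjusted p = 0.0436). These sets were bright, with mean log2 levels of 12.19 to 15.31 at 2 h and 11.53 to 14.48 at 0.5 h, and 1 of them had 3 spots above 60000. The 4 of the run lie at the same place, row 3 and columns from 13, of the 4 different sub-grids. Most consecutive codes likewise lie at the same place of different sub-grids, so code order and place within a sub-grid cannot be told apart. The files do not say what neighbouring codes share.

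In 4 dim sets a change above 1 in size appeared in 1 library pair and one under 0.2 in the other, and none of them passed the test. They are named after their values were seen. N2 had 7.07 and 8.34 in libraries 1 and 2 at 2 h, against 6.90 and 7.16 at 0.5 h. R109 had 7.23 and 8.38 at 2 h, against 7.07 and 7.24 at 0.5 h, and R203 had 7.06 and 8.18 at 2 h, against 7.01 and 7.13 at 0.5 h. R250 had its change in pair 1, with 8.64 in library 1 and 6.96 in library 2 at 2 h, against 7.25 and 7.08 at 0.5 h.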
